A study of Mus musculus with 24 samples.

Results

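A set of 10 genes of lipid mediator metabolism was described over 4 groups of mouse lung libraries: Alox5, Alox5ap, Alox12, Alox15, Ltc4s, Lta4h, Ephx2, Cyp2j6, Cyp4f18 and Ggt5. They were taken by gene symbol, as enzymes or partner proteins that make or break down leukotrienes and the hydroxides and epoxides of docosahexaenoic acid (DHA), and all 10 were found among the 26253 genes of the deposited count table. Mice ate either a control diet or one rich in DHA, an omega-3 fatty acid of fish oil, before an exposure to filtered air or to the oxidant gas ozone. The 4 groups were control-diet air, control-diet ozone, DHA-diet air and DHA-diet ozone, with 6 libraries each and 24 in all. The sources used here give no strain, sex, age, ozone dose or length of either treatment. Nor do the labels state that each library of a group is a mouse of its own, so every p-value reflects spread between libraries, which may be partly technical. The series asks whether dietary DHA changes lung inflammation after ozone, and its title names oxylipins, the oxidized fatty acids that these enzymes handle.

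Lipoxygenases add oxygen to polyunsaturated fatty acids such as arachidonic acid and DHA. The 5-lipoxygenase Alox5, helped by its membrane partner Alox5ap, makes leukotriene A4, which Lta4h turns into leukotriene B4, a neutrophil attractant, and Ltc4s joins to glutathione to make leukotriene C4. Ggt5 trims leukotriene C4 to leukotriene D4, and Cyp4f18 inactivates leukotriene B4 in mouse myeloid cells. Alox12 and Alox15 make hydroxy fatty acids, including hydroxides of DHA, while Cyp2j6 belongs to a family of P450 enzymes that make fatty acid epoxides, and the soluble epoxide hydrolase Ephx2 converts these to diols.

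The 250 bases upstream of the start of a rising and of a steady gene are shown, because both stretches hold the same short motif while the measured levels of the genes differed in behaviour. RefSeq promoters on GRCm38.p6 were found for 6 of the 10 genes (Alox5, Alox12, Cyp2j6, Cyp4f18, Lta4h and Ltc4s). Bases just after the start were found in the annotated transcripts of each of these genes except Alox12, whose start is thus less certain. Alox5, the 5-lipoxygenase gene that was higher after ozone, lies on the minus strand, and its stretch is chr6:116461179-116461428. Lta4h, whose level varied least among the 10, lies on the plus strand, with its stretch at chr10:93453146-93453395. Capitals mark matches on either strand to a pair of motifs. The first is GAGGAA, known as the core of sites of the myeloid factor PU.1. GGGCGG is known as the GC box.
Alox5: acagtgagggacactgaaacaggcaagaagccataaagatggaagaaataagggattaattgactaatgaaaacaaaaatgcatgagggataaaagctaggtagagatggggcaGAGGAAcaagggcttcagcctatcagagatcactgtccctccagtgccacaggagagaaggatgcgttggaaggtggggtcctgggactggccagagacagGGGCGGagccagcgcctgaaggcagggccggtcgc
Lta4h: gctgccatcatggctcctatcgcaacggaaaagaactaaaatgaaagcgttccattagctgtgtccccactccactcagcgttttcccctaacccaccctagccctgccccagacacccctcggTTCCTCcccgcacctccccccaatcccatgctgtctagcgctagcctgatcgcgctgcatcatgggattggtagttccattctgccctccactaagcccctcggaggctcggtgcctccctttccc
GAGGAA or its reverse complement occurred once in each stretch (as TTCCTC in Lta4h) and in 23.3% of 32851 promoters of the same length. GGGCGG was found in the Alox5 stretch and in 32.7% of all promoters, and was not found in the Lta4h stretch. The Cyp4f18 stretch held 1 match each to the PU.1 core, the GC box and AGATAA, a motif bound by GATA factors that occurred in 9.99% of promoters. The TATA box was searched as well, spelled TATAAA on either strand, and while it was present in 12.4% of promoters it was found in none of the 6. These matches describe letters only, and none of the 6 stretches was tested for binding.

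Library totals ran from 18053493 to 26225630 counts, and all 10 genes passed the filter on low counts that 16153 genes passed, with 37 to 1437 counts each per library. Levels are counts-per-million on TMM-scaled library sizes (CPM), given as the mean ± SD of the 6 libraries of a group, and changes are log2 fold changes ± SE from 1 edgeR model over all 24 libraries. The threshold for a call was 0.05, after Benjamini-Hochberg adjustment over all genes tested. The lung markers Sftpc, Scgb1a1, Ager and Cldn5 were present in every group. Within control-diet air, libraries 1 to 3 differed from libraries 4 to 6, with a mean log2 CPM of ribosomal protein genes of 6.16, 6.14 and 6.09 against 6.48, 6.50 and 6.53. DHA-diet ozone libraries 1 and 2 held the largest summed neutrophil marker levels of the 24, at 279 and 361 CPM. In whole tissue, a change in the number of cells that carry a transcript and a change of transcript per cell cannot be told apart.

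Per kilobase of exon, the lung held far more transcript of Alox5ap than of the enzyme it serves. Alox5ap stood at 31.7 ± 4.35 CPM per kilobase over the 24 libraries and Alox5 at 2.42 ± 0.442, the lowest of the 10. Between them lay Ltc4s at 9.73 ± 1.23, Lta4h at 8.30 ± 0.504, Cyp4f18 at 7.28 ± 1.25 and Cyp2j6 at 5.75 ± 0.528 CPM per kilobase. Lower levels per kilobase were those of Alox15 (4.02 ± 3.34), Alox12 (3.26 ± 0.736), Ephx2 (2.80 ± 0.511) and Ggt5 (2.50 ± 0.259). The Alox5ap range over libraries, 24.6 to 41.5, did not overlap that of any other of the 10 genes. The ranges of Alox15, Alox12, Ephx2, Ggt5 and Alox5 overlapped each other, as did those of the next neighbours Ltc4s, Lta4h and Cyp4f18. These lengths came from the GENCODE M21 annotation, which may differ from the one used for counting.

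Ozone moved few of the 10 genes past the threshold, and those it did were higher. On the control diet 1 of the 10 was called higher (Ggt5) and 0 lower with edgeR's quasi-likelihood test, where 8.93% of all genes tested were called higher and 7.87% lower. With the DHA diet 2 of 10 were called higher (Alox5 and Alox5ap) and 0 lower, against 12.7% and 11% of all genes. Averaged over diets 4 of 10 were called higher (Alox5, Alox5ap, Alox15 and Ggt5) and 0 lower, against 18.5% and 16.9% of all genes. The count called in either direction was 1, 2 and 4 of 10 in these comparisons, beside 16.8%, 23.7% and 35.4% of all genes, and is near that background in each. The median log2 fold change of the 10 genes was 0.03, 0.13 and 0.03, beside −0.01 over all genes in each comparison. Without TMM scaling, 940 genes were called higher and 1737 lower on the control diet, in place of 1442 and 1271, and averaged over diets 2359 and 3313 in place of 2989 and 2737.

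**Figure D1:**
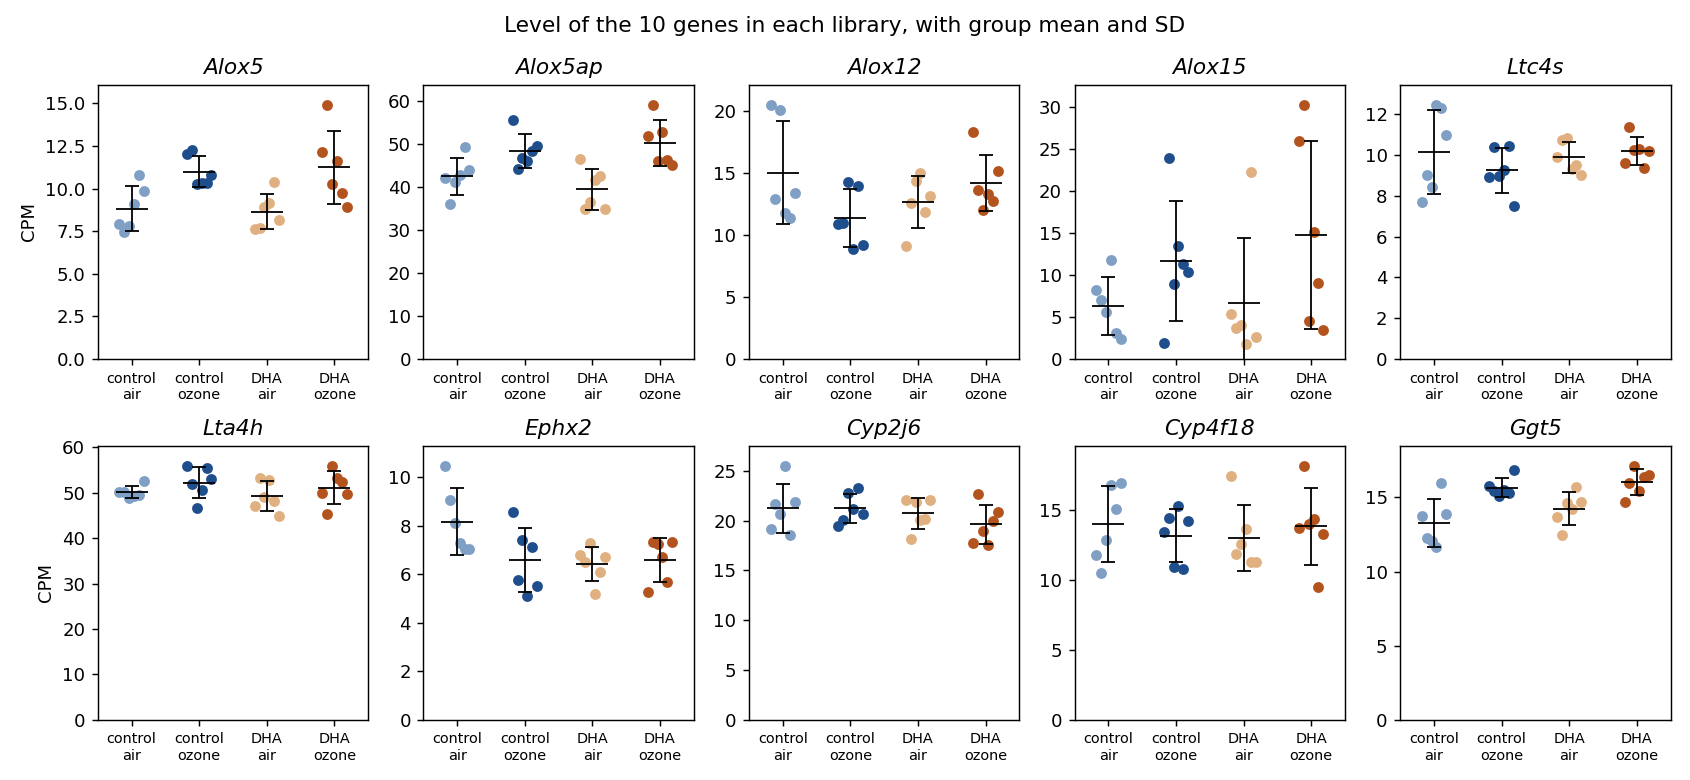
Level of each of the 10 genes in every library (points, CPM on the vertical axis from 0) in the 4 groups, with the group mean and SD as bars (the lower SD bar of Alox15 in DHA-diet air passes below 0 and is cut at the axis). Alox5 and Alox5ap sit higher in the ozone groups on both diets, Lta4h stays within 44.9 to 55.9 CPM, and Alox15 spreads from 1.78 to 30.2 CPM.

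Alox5 lay higher after ozone on both diets, and passed the threshold on the DHA diet. On the control diet its lowest, median and highest levels were 7.48, 8.52 and 10.8 CPM in air and 10.3, 10.6 and 12.3 CPM after ozone. The ranges overlapped through air library 5 alone: the other 5 air libraries lay below all 6 ozone libraries. The mean was 8.84 ± 1.31 CPM in air and 11.01 ± 0.913 after ozone, a log2 fold change of 0.32 ± 0.11 that narrowly missed the threshold (edgeR Benjamini-Hochberg adjusted p = 0.0512). On the DHA diet the lowest, median and highest levels were 7.64, 8.53 and 10.4 CPM in air and 8.90, 10.9 and 14.9 CPM after ozone. All 6 ozone libraries lay above the air median, 3 lay above every air library, and library 2 was the highest of the 24. Alox5 rose 1.30-fold there, from 8.66 ± 1.05 to 11.3 ± 2.15 CPM (log2 fold change 0.37 ± 0.11, edgeR adjusted p = 0.0162). Averaged over diets Alox5 rose 1.27-fold (0.35 ± 0.08, edgeR adjusted p = 0.00125). The effect of ozone on the 2 diets differed by 0.05 ± 0.16 on the log2 scale (interaction, edgeR adjusted p = 0.986), with an interval of ±2 SE from −0.26 to 0.37.

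Whether Alox5 passed the threshold depended on the libraries used on both diets, and on the tool used on the control diet. On the DHA diet the call was kept in 23 of 24 fits without 1 library. It was lost without ozone library 2 (0.28, edgeR adjusted p = 0.0542) and without ozone libraries 1 and 2 together (0.23, adjusted p = 0.140). On the control diet it passed with DESeq2 (adjusted p = 0.0361), with limma-voom (0.0262), with the 2 groups fitted alone (0.0374) and without air library 5 (0.0226), among others, while the change fell to 0.14 (edgeR adjusted p = 0.525) without air libraries 1 to 3. DHA-diet ozone libraries 1 and 2 were the highest of their group, and control-diet air libraries 1 to 3 the lowest of theirs. Leaving each set out together was chosen after seeing the data, and the direction of those shifts was fixed. Averaged over diets the Alox5 call held with every other scaling, filter and tool and in all 24 fits that left out 1 library, with adjusted p from 1.53e-04 to 0.00336, and without control-diet air libraries 1 to 3 (0.0217).

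Alox5ap, the membrane protein that presents arachidonic acid to Alox5, followed the same course. Its lowest, median and highest levels on the DHA diet were 34.9, 38.9 and 46.4 CPM in air and 45.1, 48.9 and 58.9 CPM after ozone. A single air library, number 1, reached into the ozone range, and the other 5 lay below all ozone libraries. Alox5ap rose 1.27-fold, from 39.4 ± 4.73 to 50.1 ± 5.39 CPM (log2 fold change 0.35 ± 0.08, edgeR Benjamini-Hochberg adjusted p = 0.00249). This call was kept in 24 of 24 fits without 1 library and without DHA-diet ozone libraries 1 and 2 together (0.27, adjusted p = 0.0195). On the control diet the lowest, median and highest levels were 36.0, 42.3 and 49.2 CPM in air and 44.2, 47.5 and 55.6 CPM after ozone, again with air library 5 alone inside the ozone range. Means of 42.5 ± 4.30 and 48.35 ± 3.98 CPM gave a log2 fold change of 0.19 ± 0.08 that did not pass (edgeR adjusted p = 0.108), and passed without air library 5 (0.0498). The interaction was 0.16 ± 0.11, with ±2 SE from −0.07 to 0.38, so the effects on the 2 diets were not shown to differ (edgeR adjusted p = 0.909). Averaged over diets the log2 fold change was 0.27 ± 0.06 (edgeR adjusted p = 5.65e-04).

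Markers of blood and airspace leukocytes, in which both genes are known to be expressed, were compared between the same groups. Of 9 neutrophil markers tested, 7 were called higher after ozone on the DHA diet and 1 on the control diet. Their summed level over 10 markers, 0 of which were at 0 in any whole group, ran from 48.9 to 85.2 CPM in DHA-diet air and 76.9 to 361 CPM in DHA-diet ozone, with 54.8 to 202 CPM in control-diet air and 60.1 to 171 CPM in control-diet ozone. Control-diet air library 5, high in Alox5 and Alox5ap, held the largest neutrophil sum of its group at 202 CPM. Of 10 alveolar macrophage markers, 2 and 3 were called higher after ozone on the control and the DHA diet, with the others not called. Their sum, which the most abundant markers dominate, did not overlap between air and ozone on either diet (321 to 396 against 461 to 577 CPM, and 351 to 415 against 463 to 636 CPM). Their mean log2 CPM, which weighs the markers evenly, did overlap on both diets (3.38 to 3.82 against 3.67 to 4.08, and 3.67 to 3.87 against 3.75 to 4.24). Of 10 monocyte and interstitial macrophage markers, 2 were called higher on the control diet and 1 higher and 1 lower on the DHA diet, and their sums overlapped (778 to 894 against 806 to 968 CPM, and 777 to 934 against 776 to 1010 CPM). Of 8 dendritic cell markers, 1 was called higher and 1 lower on the control diet, and 0 higher and 3 lower on the DHA diet. Over all genes tested, 16.8% were called in either direction on the control diet and 23.7% on the DHA diet. Of these marker counts, only that of the neutrophil list on the DHA diet stood far above this background. The part of these cells in the Alox5 and Alox5ap changes was not tested.

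Alox15, the 12/15-lipoxygenase, was the most variable of the 10 genes and varied mainly between libraries of 1 group. Its lowest, median and highest levels were 2.44, 6.33 and 11.8 CPM in control-diet air and 1.96, 10.8 and 24 CPM after ozone on that diet. In DHA-diet air they were 1.78, 3.88 and 22.3 CPM, and in DHA-diet ozone 3.49, 12.1 and 30.2 CPM. All 4 groups overlapped, and the highest library held 17.01 times the level of the lowest. The SD of its log2 CPM within groups was 1.15, which 0.0743% of the genes tested exceeded. Group means of 6.37 ± 3.465 and 11.7 ± 7.19 CPM on the control diet gave a log2 fold change for ozone of 0.89 ± 0.57 (edgeR adjusted p = 0.298). With DHA, means of 6.65 ± 7.77 and 14.7 ± 11.2 CPM gave 1.12 ± 0.55 (edgeR adjusted p = 0.147).

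That last change moved widely with the libraries left out. Without air library 5, at 22.3 CPM where the next of its group had 5.37, the log2 fold change was 2.06 (edgeR adjusted p = 0.00767), and without DHA-diet ozone libraries 1 and 2 it was 0.27 (adjusted p = 0.783). Averaged over diets Alox15 was 2.01-fold higher after ozone (1.01 ± 0.40, edgeR adjusted p = 0.0487). That call was kept in 6 of 24 fits without 1 library and in 3 of 11 other alternatives, which include the threshold of 0.01. It was lost, among others, with the replicate block (0.0517), DESeq2 (0.0586) and limma-voom (0.0644). Eosinophils are a known source of Alox15, and the 5 eosinophil markers summed to at most 1.70 CPM in any library, with 1 of 5 passing the filter. The part of eosinophils in the Alox15 levels was not tested.

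Alox12, the platelet-type 12-lipoxygenase, was the gene whose ozone change differed most between diets by its unadjusted p, though not past the threshold. The lowest, median and highest levels were 11.4, 13.2 and 20.5 CPM in control-diet air and 8.85, 10.9 and 14.3 CPM after ozone. Air libraries 1 and 3, at 20.5 and 20.1 CPM, were the 2 highest of the 24, and 4 of 6 ozone libraries lay below every air library. The means of 15.02 ± 4.16 and 11.4 ± 2.31 CPM gave a log2 fold change of −0.40 ± 0.15 (edgeR Benjamini-Hochberg adjusted p = 0.0739). On the DHA diet the levels were 9.10, 12.9 and 15.04 CPM in air and 12.1, 13.5 and 18.3 CPM after ozone, with overlapping ranges. The means of 12.7 ± 2.10 and 14.2 ± 2.255 CPM gave 0.17 ± 0.15 (edgeR adjusted p = 0.459). The interaction was 0.57 ± 0.22 (edgeR adjusted p = 0.697), and over its alternatives with at most 1 library of a group left out the adjusted p ran from 0.528 to 0.945. It was 0.28 (edgeR adjusted p = 0.635) without control-diet air libraries 1 to 3 and 0.83 (0.144) without libraries 4 to 6. As libraries 1 and 3 were the highest, the direction of both shifts was fixed by this split, chosen after seeing the data.

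Platelet transcripts varied across the same libraries as Alox12. The summed level of 8 platelet and megakaryocyte markers was 151 and 145 CPM in control-diet air libraries 1 and 3, against 105 to 121 CPM in the other 4 of that group, and ran from 97.0 to 125 CPM in control-diet ozone, 92.1 to 126 CPM in DHA-diet air and 92.5 to 148 CPM in DHA-diet ozone. Of the 8 markers, 0 were called higher and 1 lower after ozone on the control diet, and 1 higher and 0 lower on the DHA diet. Without control-diet air libraries 1 to 3 the Alox12 change on the control diet was −0.10 (edgeR adjusted p = 0.733), and without libraries 4 to 6 it was −0.65 (0.00864). The direction of these shifts too was fixed by the split, since libraries 1 and 3 held the most Alox12. The part of platelets in the Alox12 levels was not tested.

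Lta4h, which makes leukotriene B4, was the steadiest of the 10. The lowest, median and highest levels of Lta4h were 48.9, 49.8 and 52.6 CPM in control-diet air, 46.6, 52.4 and 55.9 CPM in control-diet ozone, 44.9, 48.5 and 53.3 CPM in DHA-diet air and 45.3, 51.2 and 55.9 CPM in DHA-diet ozone. The 4 ranges overlapped nearly whole, and the within-group SD of log2 CPM was 0.0874, smaller than that of 83.9% of genes tested. The log2 fold change for ozone was 0.06 ± 0.05 on the control diet and 0.05 ± 0.05 on the DHA diet (edgeR adjusted p = 0.469 and 0.490). The ±2 SE intervals ran from −0.04 to 0.16 and from −0.05 to 0.16, which leaves out a change as large as the 0.35 fitted for Alox5 averaged over diets.

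Ltc4s, the leukotriene C4 synthase of mast cells, macrophages and other leukocytes, was not called either. Levels (lowest, median, highest) were 7.68, 9.996 and 12.4 CPM in control-diet air and 7.51, 9.10 and 10.4 CPM in control-diet ozone. With DHA in air they were 9.004, 9.71 and 10.9 CPM, and in DHA-diet ozone 9.37, 10.2 and 11.4 CPM. The control-diet air group was split, with libraries 1, 2 and 3 at 7.68, 9.03 and 8.43 CPM below libraries 4, 5 and 6 at 12.4, 12.3 and 10.96 CPM, the same libraries that differed in ribosomal protein genes. The log2 fold change for ozone was −0.13 ± 0.11 on the control diet and 0.04 ± 0.11 on the DHA diet (edgeR adjusted p = 0.451 and 0.823). On the control diet it was −0.37 (edgeR adjusted p = 0.0187) without air libraries 1 to 3 and 0.14 (0.373) without libraries 4 to 6. As libraries 1 to 3 were the lower ones, the direction of both shifts was fixed by the split. Of 8 mast cell and basophil markers tested, 0 were called higher and 1 lower after ozone on the control diet (median log2 fold change −0.19) and 1 higher and 1 lower on the DHA diet (0.08). The part of these cells in the Ltc4s levels was not tested.

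Ggt5, which forms leukotriene D4 at the cell surface, was the 1 gene called for ozone on the control diet. Its lowest, median and highest levels were 11.7, 13.01 and 15.99 CPM in air and 15.1, 15.5 and 16.9 CPM after ozone. Only air library 5 reached the ozone range, and the 6 ozone libraries were tightly grouped. Ggt5 rose 1.18-fold, from 13.3 ± 1.61 to 15.7 ± 0.627 CPM (log2 fold change 0.24 ± 0.07, edgeR Benjamini-Hochberg adjusted p = 0.0222). On the DHA diet the levels were 12.4, 14.4 and 15.7 CPM in air and 14.7, 16.2 and 17.1 CPM after ozone, where 4 ozone libraries lay above every air library. The change there, 0.17 ± 0.07 from 14.2 ± 1.11 to 16.02 ± 0.867 CPM, did not pass (edgeR adjusted p = 0.0816), and the interaction was −0.07 ± 0.10 (adjusted p = 0.968). Averaged over diets Ggt5 rose 1.15-fold (0.20 ± 0.05, edgeR adjusted p = 0.00235). The control-diet call was lost without air library 2 (adjusted p = 0.0590), 3 (0.0554) or 4 (0.0712), without ozone library 6 (0.0634), and without air libraries 1 to 3 together (0.17, 0.224).

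Ephx2, the soluble epoxide hydrolase that turns fatty acid epoxides into diols, stood highest in control-diet air. Its lowest, median and highest levels were 7.04, 7.71 and 10.5 CPM there, 5.12, 6.45 and 8.56 CPM in control-diet ozone, 5.19, 6.61 and 7.29 CPM in DHA-diet air and 5.28, 6.99 and 7.33 CPM in DHA-diet ozone. All groups overlapped, though 5 of 6 DHA-diet air libraries lay below every control-diet air library, and air libraries 1 and 2 held the 2 highest levels of the 24. The control-diet air mean of 8.18 ± 1.37 CPM compared with 6.59 ± 1.33 after ozone (log2 fold change −0.31 ± 0.13, edgeR adjusted p = 0.0919) and with 6.43 ± 0.718 in DHA-diet air (−0.35 ± 0.13, adjusted p = 0.153). These 2 comparisons share the control-diet air libraries. After ozone the DHA-diet mean was 6.60 ± 0.903 CPM, and diet made a difference of 0.00 ± 0.13 (edgeR adjusted p = 0.998).

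Cardiac muscle transcripts, which lung samples can carry from pulmonary veins or heart, were also high in control-diet air libraries 1 and 2. Of that group, library 1 was also the highest in adipocyte transcripts. The summed level of 7 cardiac muscle markers, all measured and none at 0, was 2586 and 2635 CPM in control-diet air libraries 1 and 2 and 1571 to 1842 CPM in the other 4, with 1108 to 1838, 1202 to 1944 and 1141 to 1797 CPM in the other 3 groups. The 7 adipocyte markers, none at 0, summed to 88.9 to 168 CPM in control-diet air, with library 1 highest, and to 68.7 to 125, 62.4 to 157 and 67.8 to 102 CPM in the others. The median log2 fold change for ozone on the control diet was −0.32 over the cardiac and −0.52 over the adipocyte markers, with 1 of 7 called lower in each list, and for diet in air it was −0.43 and −0.57, with 0 called. Without control-diet air libraries 4 to 6, Ephx2 was called lower after ozone on the control diet (−0.49, edgeR adjusted p = 0.0229) and with the DHA diet in air (−0.53, 0.0254). Without libraries 1 to 3 the same changes were −0.12 (0.661) and −0.15 (0.680). Libraries 1 to 3 held more Ephx2 (10.5, 9.08 and 8.13 CPM) than libraries 4 to 6 (7.28, 7.04 and 7.06 CPM). The direction of these shifts was therefore fixed by the split, which was chosen after seeing the data. The part of cardiac or fat tissue in the Ephx2 levels was not tested.

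Cyp2j6, of the epoxide-forming P450 family, kept a like level in the 4 groups. The lowest, median and highest levels of Cyp2j6 were 18.6, 21.2 and 25.5 CPM in control-diet air, 19.5, 20.9 and 23.2 CPM in control-diet ozone, 18.2, 21.1 and 22.1 CPM in DHA-diet air and 17.6, 19.5 and 22.7 CPM in DHA-diet ozone. The ranges overlapped in every pair of groups. Ozone changed it by 0.00 ± 0.08 on the control diet and −0.08 ± 0.08 on the DHA diet on the log2 scale (edgeR adjusted p = 0.996 and 0.469), with ±2 SE intervals of −0.15 to 0.15 and −0.23 to 0.07.

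Cyp4f18, the hydroxylase that clears leukotriene B4, was measured with wider spread. Levels of Cyp4f18 (lowest, median and highest) were 10.5, 13.98 and 16.96 CPM in control-diet air, 10.8, 13.8 and 15.3 CPM in control-diet ozone, 11.3, 12.2 and 17.4 CPM in DHA-diet air and 9.50, 13.8 and 18.1 CPM in DHA-diet ozone. The lowest and the highest of the 24 libraries were both in DHA-diet ozone, numbers 5 and 2. Ozone made a difference of −0.09 ± 0.14 on the control diet and 0.08 ± 0.14 on the DHA diet (edgeR adjusted p = 0.714 and 0.700). The ±2 SE intervals were −0.36 to 0.19 and −0.19 to 0.36.

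**Figure D2:**
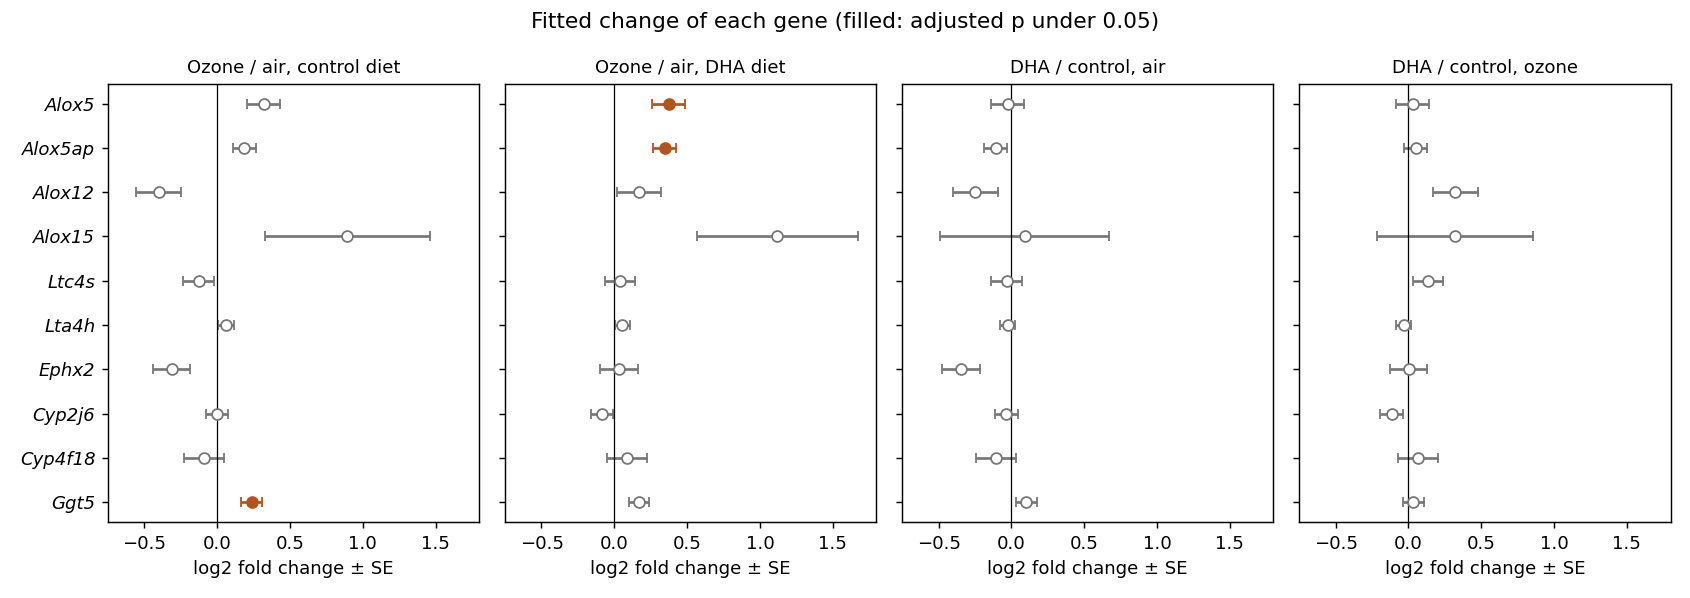
Fitted log2 fold change (point) ± SE (bar) of each of the 10 genes for ozone against air on each diet and for the DHA against the control diet in each exposure, with filled points at adjusted p under 0.05. Filled points appear for Ggt5 on the control diet and for Alox5 and Alox5ap on the DHA diet, and for no gene in the 2 diet comparisons.

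Diet alone called none of the 10 genes. In air 0 of 10 were called by edgeR's quasi-likelihood test, where 1.15% of all genes were (0.724% higher and 0.427% lower, or 117 and 69 genes, which became 72 and 113 without TMM scaling), and after ozone 0 of 10 with 0 of all genes. DESeq2 and limma-voom also called 0 of the 10 in both, with 583 and 849 genes called in air and 80 and 19 after ozone. One of the 10 had an unadjusted p under 0.05 in air (Ephx2) and 1 after ozone (Alox12), as did 2798 and 2260 of all genes. Alox12 after ozone was at 11.4 ± 2.31 CPM on the control diet and 14.2 ± 2.255 on the DHA diet, with all 6 DHA-diet libraries above the control median (log2 fold change 0.32 ± 0.15, edgeR adjusted p = 0.352). Averaged over exposures 0 of 10 were called, beside 7.06% of all genes (3.19% higher and 3.87% lower), and 0 of 10 had an unadjusted p under 0.05 with edgeR. For the interaction of diet and exposure 0 of 10 and 0 of all genes were called, with 1 of 10 (Alox12) and 988 genes at an unadjusted p under 0.05, and with 5 genes called by DESeq2 and 2 by limma-voom, none among the 10.

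For Alox5 the DHA diet made a log2 difference of −0.03 ± 0.11 in air and 0.03 ± 0.11 after ozone, and for Alox5ap −0.11 ± 0.08 and 0.05 ± 0.08. Their ±2 SE intervals after ozone were −0.19 to 0.25 and −0.11 to 0.21. For Alox15 the same difference was 0.09 ± 0.58 in air and 0.32 ± 0.54 after ozone. The ±2 SE interval after ozone, −0.75 to 1.39, includes lower levels on the DHA diet, no difference and a level 2-fold higher.

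Among 59 other genes of the same pathways, 30 of the 58 in the table were abundant enough to test. On the control diet 3 were called higher after ozone (Mgst3, Ptgr1 and Cotl1) and 2 lower (Gpr17 and Cyp4a12b), and on the DHA diet the same 3 higher and 3 lower (Gpr17, Cyp4a12b and Cyp4f17), with a median log2 fold change of 0.02 and 0.00 over the 30. These 5 and 6 of 30 stand beside 16.8% and 23.7% of all genes and are not above that background. In air, after ozone and in the interaction 0 of 30 were called for diet by edgeR. Averaged over exposures 1 of 30 was higher on the DHA diet, Dpep1, a dipeptidase that turns leukotriene D4 into leukotriene E4 (log2 fold change 0.29 ± 0.07, edgeR adjusted p = 0.0103), which is named after its value was seen. The 3 that rose after ozone are from a list of genes that handle leukotriene A4 and C4, of which the other 8 of 11 tested were not called on either diet. Of the other lipoxygenases, Aloxe3 was tested and not called, while Alox8, Alox12b and Alox12e did not pass the filter.

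Mgst3, a microsomal glutathione transferase able to make leukotriene C4, ran from 44.0 to 53.5 CPM (median 47.0) in control-diet air and from 59.6 to 71.7 CPM (median 65.0) after ozone, and from 48.0 to 50.3 CPM (median 49.0) and 66.3 to 79.3 CPM (median 70.8) on the DHA diet. No ozone library overlapped the air libraries on either diet. Mgst3 rose 1.37-fold on the control diet and 1.46-fold on the DHA diet (edgeR adjusted p = 6.62e-06 and 1.89e-07). Ptgr1, the reductase that also oxidizes and inactivates leukotriene B4, rose 1.39-fold from 89.8 ± 6.18 to 125 ± 14.2 CPM and 1.49-fold from 81.5 ± 5.47 to 122 ± 8.82 CPM, again without overlap (edgeR adjusted p = 3.29e-05 and 1.70e-06). Cotl1, an actin-binding protein known to bind 5-lipoxygenase, rose 1.27-fold on each diet without overlap, from 68.7 ± 3.43 to 87.4 ± 8.12 CPM and from 67.9 ± 3.99 to 86.5 ± 4.10 CPM (edgeR adjusted p = 9.83e-05 and 4.68e-05).

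Of 4 leukotriene and related receptors tested, 1 was called lower after ozone on each diet, and of 8 P450 omega hydroxylases 1 on the control and 2 on the DHA diet, with the others not called. Gpr17, a receptor related to the cysteinyl leukotriene receptors, fell to 0.595 of its air level on the control diet (2.83 ± 0.399 to 1.67 ± 0.478 CPM) and to 0.557 on the DHA diet (2.79 ± 0.538 to 1.57 ± 0.531 CPM; edgeR adjusted p = 0.0113 and 0.00337). Cyp4a12b, a fatty acid omega hydroxylase with close paralogs that can share reads, fell to 0.589 and 0.603 of its air level (edgeR adjusted p = 0.0268 and 0.0337). Cyp4f17, a relative of Cyp4f18, fell to 0.815 on the DHA diet (11.8 ± 1.19 to 9.66 ± 1.85 CPM, edgeR adjusted p = 0.0297) and stood at 0.834 on the control diet, where the call missed the threshold (adjusted p = 0.0644) although the ranges did not overlap.

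The 10 genes did not move as 1 block across libraries. Alox5 and Alox5ap were the most alike pair, with a Pearson r of log2 CPM over the 24 libraries of 0.81 (Spearman rho 0.76, and r of 0.65 after group means were removed). The least alike were Lta4h and Cyp2j6 (r of −0.41, rho −0.49). All points of these correlations share the diet and ozone groups and the cell content of the sample, and the values are descriptions without a test.

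The 3 genes of largest r among all those tested are named for each enzyme. Alox15 was most like Prg4, the lubricant proteoglycan (r 0.97, rho 0.98, r of 0.97 with group means removed and 0.97 without the 2 libraries farthest from the Alox15 median), Cd5l, a secreted macrophage protein (r 0.94), and Selp, the adhesion molecule P-selectin (r 0.89). Prg4 ranged from 1.38 to 44.1 CPM over the libraries, so both genes varied widely within every group. Alox12 was most like Tubb1 (r 0.86, and 0.80 without its 2 farthest libraries), Ppbp (0.85) and Itga2b (0.81), which are platelet and megakaryocyte genes. Alox5 was most like the leukocyte integrin subunit Itgb2 (r 0.87, rho 0.86), Pilra (0.85) and Retnlg (0.85), and Alox5ap like Cotl1 (0.85), Itgb2 (0.84) and Pcbd2 (0.82).

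For the other 6 genes the largest r of each lay between 0.73 and 0.82. Ephx2 was most like 1810020O05Rik (r 0.81), the potassium channel gene Kcnj11 (0.81) and the muscle gene Csrp3 (0.80, rho 0.63). Cyp4f18 was most like Slfn2 (0.74), the leukocyte GTPase Rac2 (0.72) and Cklf (0.70), and Ltc4s like Nae1 (0.73), Gm5148 (0.72) and the ribosomal protein gene Rpl36a (0.71). Ggt5 was most like Atp6v1g1, Scp2 and Fuca1 (r 0.82, 0.82 and 0.81), which dropped to 0.55, 0.55 and 0.54 with group means removed. Lta4h was most like Gja5 (0.77), Cpn1 (0.72) and Rbm19 (0.71), and Cyp2j6 like Stk38 (0.78), Smim40 (0.71) and 5430425K12Rik (0.69).

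**Figure D3:**
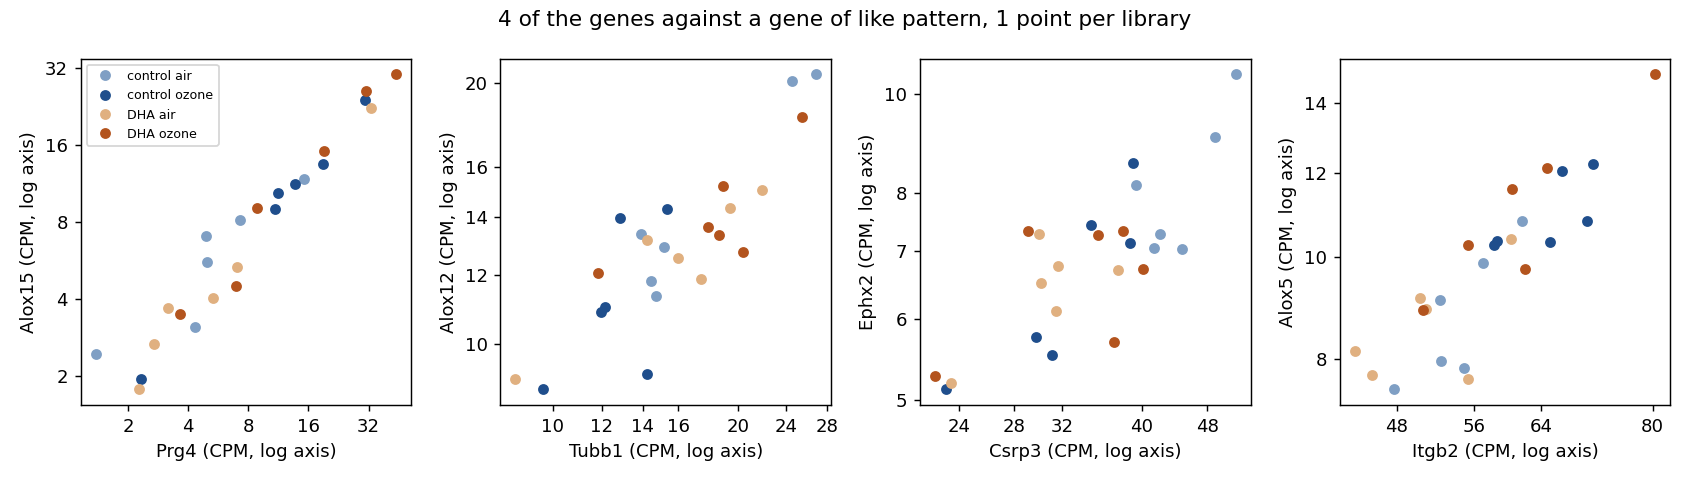
Levels of Alox15, Alox12, Ephx2 and Alox5 (vertical axes) against Prg4, Tubb1, Csrp3 and Itgb2 (horizontal axes), in CPM on log axes, with 1 point per library coloured by group. The Alox15 points follow Prg4 closely over the whole range in all 4 groups (r 0.97), while in the Alox12 panel 3 libraries stand at the upper right and Ephx2 scatters more widely.

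**Figure D4:**
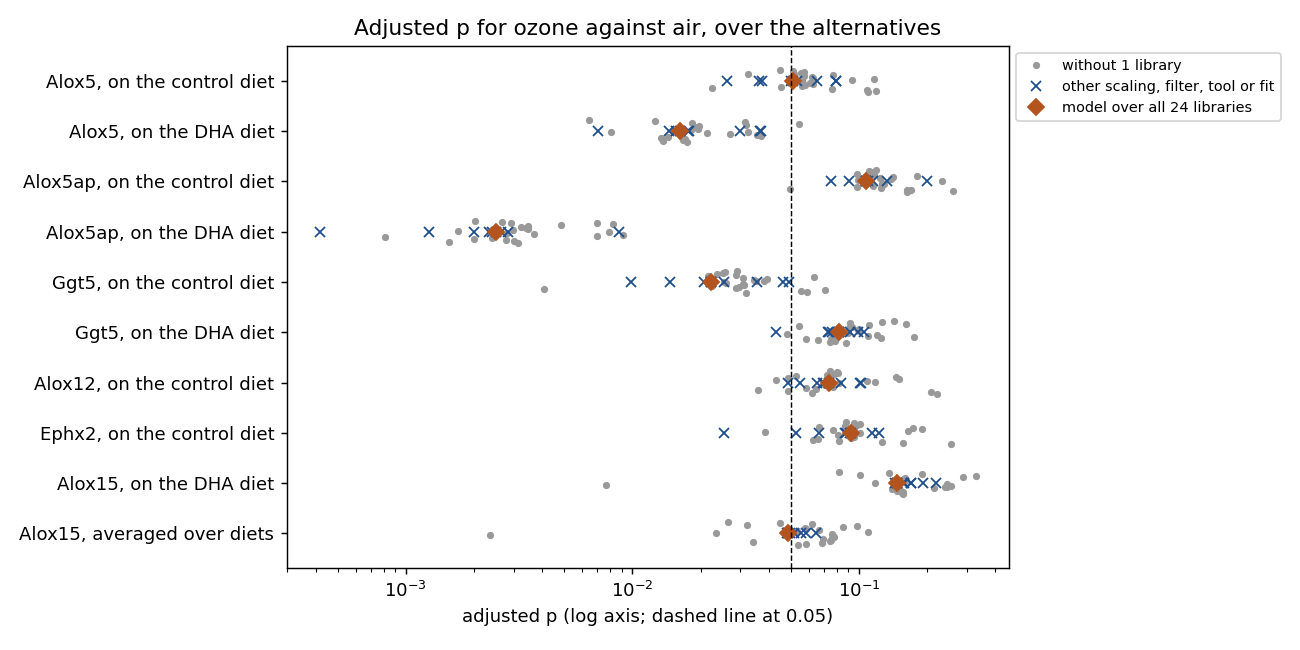
Adjusted p (log axis, dashed line at 0.05) for ozone against air in 10 results, from the model over all 24 libraries (diamonds), other scalings, filters, tools or fits (crosses) and 24 fits without 1 library (grey points). Alox5ap on the DHA diet stays left of the line throughout, whereas every other result shown has points on both sides.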

How the data were processed

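RNA of 24 lung libraries was sequenced. The submitters' processing notes name Partek, STAR, HTSeq and mm39, and the sources used here give no versions, annotation or strand setting. The authors deposited raw counts per gene, whole numbers except that Scgb1a1 was rounded to 3 significant digits. The 10 genes and all lists were chosen with earlier results of these data known.

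Groups came from the labels. Counts were filtered with filterByExpr (minimum count 10, minimum total 15), TMM-scaled and modelled by quasi-likelihood with edgeR 4.0.16 under R 4.3.3 with 1 mean per group (20 residual degrees of freedom), and p-values were adjusted over 16153 genes. The SE is the log2 fold change over the root of F. Log2 CPM used a prior count of 2. The test was checked on simulated data. Named beside the 10 genes were other pathway genes called in a pairwise comparison or the interaction, at most 10, and the 3 genes of largest r with each. Alternatives were RLE or no scaling, no filter, at least 1 CPM in 6 libraries, DESeq2 1.42.0, limma-voom with quality weights (limma 3.58.1), the replicate number as a block, 2 groups alone, an adjusted p under 0.01 and leaving out each library. Leaving out control-diet air libraries 1 to 3 or 4 to 6, or DHA-diet ozone libraries 1 and 2, was added after seeing the data. Tables came from pandas 2.3.3, numpy 2.4.6 and scipy 1.17.1, figures from matplotlib 3.10.9, all under Python 3.11.15.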

Additional observations from a re-analysis of the deposited data

Results flagged for a closer look

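Of 40 groups of 6 libraries (10 genes in 4 groups), 2 had a library far from the others by Dixon's test at the 95% level, which chance gives in about 1 of 20 groups. Alox15 stood at 22.3 CPM in DHA-diet air library 5, where the next highest library of the group had 5.37 and the lowest 1.78 CPM. Lta4h stood at 52.6 CPM in control-diet air library 6, where the next highest had 50.2 and the lowest 48.9 CPM.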

How the results depend on the processing

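Over 2490 recomputed values of the 10 genes, 0 of the 133 changes of sign touched a called value, while 26 calls were gained and 35 lost. Among the 10 genes, the count called for ozone on the control diet, 1, became 3 with DESeq2, 3 with limma-voom, 2 with the 2 groups alone, 0 at an adjusted p under 0.01, 5 without control-diet air libraries 4 to 6, 2 without DHA-diet ozone libraries 1 and 2, and 0 to 4 without 1 library (4 without control-diet air library 5, 0 without air library 2 or 3 or ozone library 6). On the DHA diet the count, 2, became 1 at an adjusted p under 0.01, 1 without ozone libraries 1 and 2, 3 with limma-voom and without control-diet air libraries 4 to 6, and 1 to 4 without 1 library (4 without air library 5, 1 without ozone library 2). For diet in air it became 1 without control-diet air libraries 4 to 6.

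Over all genes, an adjusted p under 0.01 left 1245 and 2101 genes for ozone on the control and DHA diets, 3769 for ozone averaged over diets, 20 for diet in air and 166 for diet averaged over exposures. Without control-diet air libraries 1 to 3, 1803 genes were called for ozone on the control diet, 0 for diet in air and 10 for diet averaged over exposures, against 1551 for diet in air, 27 for diet after ozone, 4 for the interaction and 2513 for averaged diet without libraries 4 to 6. For diet in air the count of 186 was 583 with DESeq2, 849 with limma-voom, 359 with the 2 groups alone, 747 without DHA-diet ozone libraries 1 and 2, and 49 to 716 without 1 library. After ozone the count of 0 was 80, 19 and 2 with DESeq2, limma-voom and the 2 groups alone, and 0 to 144 without 1 library. The interaction gave 5 and 2 with DESeq2 and limma-voom and 0 to 3 without 1 library, and averaged diet 578 to 1680 without 1 library. The cause was not tested.

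Same-numbered libraries showed no shared deviation (mean correlation of deviations −0.0169 over 36 pairs, 0 of 24 libraries closest to their own number). The labels do not say whether they were paired. With the replicate block diet in air gave 85 genes, and the Alox15 call averaged over diets was lost (adjusted p = 0.0517). Counts of the 10 genes were as low as 37 in a library (Alox15).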
